A study of Mus musculus with 16 samples.

Results

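The elastic fibre genes described here were 10 genes chosen by symbol, namely Eln, Fbn1, Fbn2, Fbln5, Efemp2, Lox, Loxl1, Emilin1, Mfap4 and Mfap5, out of 54532 genes in the deposited tables. All 10 symbols were found, each as 1 protein-coding gene. RNA of the whole aorta was sequenced from 16 male C57BL/6J mice in 4 groups of 4, 1 library per animal. Mice aged 12 weeks underwent 5/6 nephrectomy (5/6 Nx, ligation of the poles of the left kidney followed by removal of the right kidney) or the same operations without ligation or removal (Sham), and recovered for 2 weeks. They were then fed for 30 days. Sham and 5/6 Nx-HPi-Lp had one diet in common, with 2% phosphorus and 2.5% protein. The 5/6 Nx-HPi-Hp mice ate 2% phosphorus and 18% protein, and the 5/6 Nx-LPi-Lp mice ate 0.3% phosphorus and 2.5% protein. Hence the comparison with Sham on the HPi-Lp diet changes only the operation, whereas the other 2 operated groups differ from Sham in both operation and diet.

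Elastic fibres consist of a core of cross-linked elastin laid down on a scaffold of fibrillin microfibrils. Fibulins bring tropoelastin to the microfibrils, lysyl oxidases cross-link it, and emilins and microfibril-associated proteins lie at the interface or on the fibre surface. In the aorta these fibres form the concentric lamellae between the layers of smooth muscle cells, where medial calcification is found.

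Library totals ranged from 13659525 to 57276915 counts, and the 2 deepest libraries were 5/6 Nx-HPi-Lp replicates 2 and 3. Mitochondrially encoded genes took 4.18% to 6.34% of the counts in Sham and 9.50% to 29.04% in the operated groups. The labelled tissue was borne out by smooth muscle markers: Myh11 averaged 796 ± 39.0 FPKM (fragments scaled for gene length and library depth, a level per length, SD, n = 4) in Sham and 103 ± 45.0 in 5/6 Nx-HPi-Lp. 5/6 Nx-HPi-Hp replicate 4 stood apart from its group. Its 7 smooth muscle markers summed to 8383 FPKM, against 1886 to 3453 in the other 3 libraries of that group and 7619 to 9680 in Sham. Changes of most members that involve this group are therefore also given without it. Tests of ratios, related lists and marker lists are given with it only.

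A gene was called when edgeR's quasi-likelihood test gave an adjusted p of at most 0.05 over all genes tested and the log2 fold change was at least 1 in either direction. Fbn2, at 0 to 5 counts in Sham, entered the test only through 5/6 Nx-HPi-Lp and so had to differ there. It passed both thresholds as higher in that group's 3 comparisons, is left out of the counts that follow, and is described by its counts below. In 5/6 Nx-HPi-Lp against Sham, 0 of the other 9 genes were called higher and 2 were called lower (Fbln5 and Mfap4), where 15.0% of all 16513 tested genes were called higher and 7.18% lower. The median log2 fold change of the 9 was -0.57, and that of all genes was -0.0027. Set against 5/6 Nx-HPi-Hp, 1 of 9 was called higher in 5/6 Nx-HPi-Lp (Lox) and 1 lower (Mfap4), beside 5.01% and 3.11% of all genes. Set against 5/6 Nx-LPi-Lp, 2 of 9 were called higher in 5/6 Nx-HPi-Lp (Fbn1 and Lox) and 0 lower, beside 7.90% and 3.98% of all genes. The medians of the 9 in these 2 comparisons were -0.31 and 0.097. These 3 comparisons share the 5/6 Nx-HPi-Lp libraries, so their calls are not independent of each other.

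In 5/6 Nx-LPi-Lp against Sham, 3 of the 9 tested members were called lower (Fbn1, Fbln5 and Lox) and 0 higher, beside 2.08% and 8.79% of all genes, with a median of -0.71 over the 9. In the same comparison 5 of 5 adipocyte and 4 of 4 brown adipocyte markers were called higher (brown adipocyte sum of 1028 to 3380 FPKM, against 209 to 452 in Sham), 2 of 3 tested heart muscle markers higher (sum of 1878 FPKM in 5/6 Nx-LPi-Lp replicate 2 and 5.19 to 18.0 in the other 3 libraries), and 1 of 7 smooth muscle and 1 of 7 fibroblast markers lower. Their part in the lower members was not tested. For 5/6 Nx-HPi-Hp against Sham, 0 of 9 were called, beside 9.41% higher and 2.75% lower of all genes, with a median of -0.32. Without 5/6 Nx-HPi-Hp replicate 4 the same 3 genes, Fbn1, Fbln5 and Lox, were called lower there, while genes called over the whole table rose from 1932 to 3161. The count of 0 thus rested in part on 1 library. Fbln5 and Lox were also called lower there by some other methods with every library kept, as given below. For 5/6 Nx-HPi-Hp against 5/6 Nx-LPi-Lp, 0 of 9 were called, and by edgeR 0.00% of all genes were called in either direction, with 1420 genes at an unadjusted p under 0.05 and 78 genes called by DESeq2, none of them a member. Fbn2 did not pass the filter on low counts in the 3 comparisons that leave out 5/6 Nx-HPi-Lp.

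**Figure D1:**
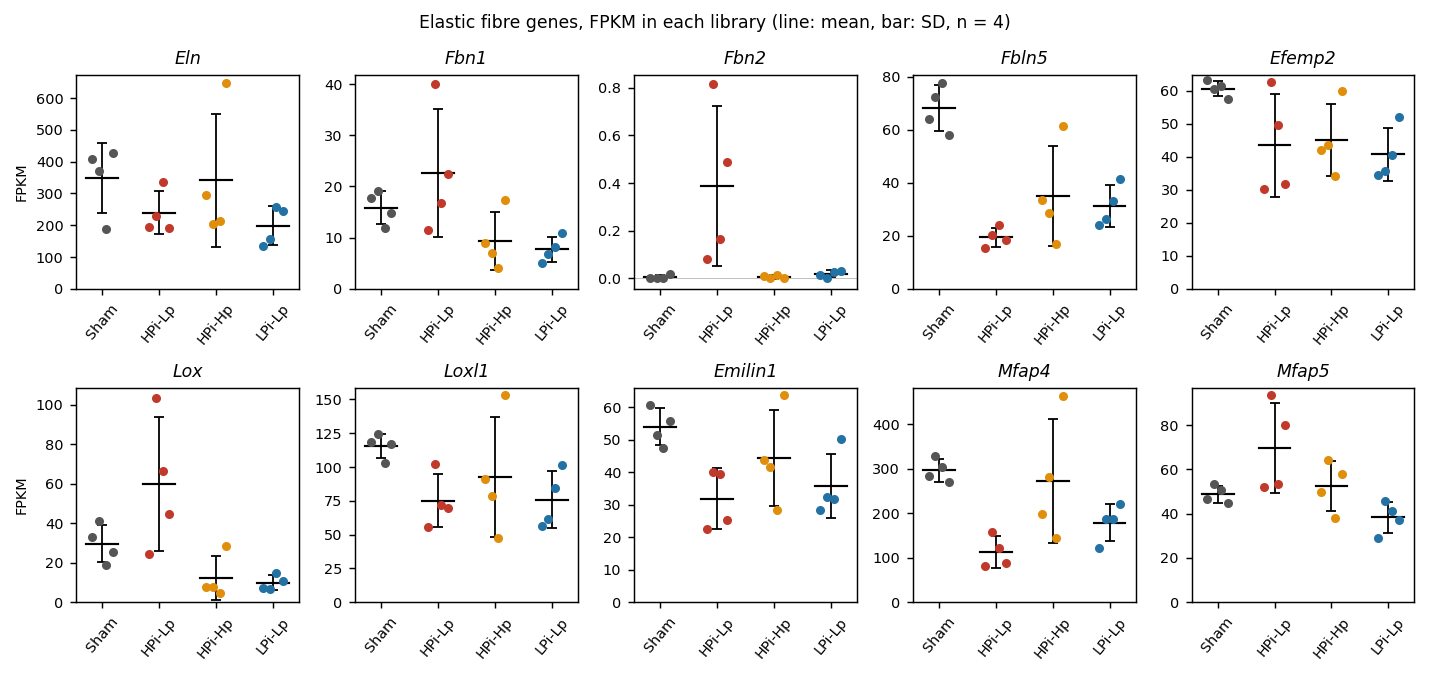
FPKM of the 10 elastic fibre genes in each of the 16 libraries, one panel per gene, with 4 points per group, the group mean as a line and the SD as a bar. All 4 Sham libraries lie above all 4 5/6 Nx-HPi-Lp libraries for Fbln5, Loxl1, Emilin1 and Mfap4, and below them for Fbn2. The highest 5/6 Nx-HPi-Hp point in all panels but Fbn2 and Mfap5 is replicate 4.

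Eln encodes tropoelastin, the soluble subunit of the elastic core (mm10 chr5:134702593-134747323, minus strand). It had the highest mean level per length of the 10 genes in each of the 4 groups. The Sham libraries held 408, 370, 187 and 426 FPKM and the 5/6 Nx-HPi-Lp libraries 196, 231, 337 and 191 FPKM. The 5/6 Nx-HPi-Hp libraries held 295, 205, 215 and 648 FPKM, and the 5/6 Nx-LPi-Lp libraries 134, 157, 259 and 244 FPKM. Sham replicate 3 lay below all 4 of the 5/6 Nx-HPi-Lp values, and all 4 groups overlapped. Eln was not called in any of the 6 comparisons by the test used here. Its log2 fold change in 5/6 Nx-HPi-Lp against Sham was -0.57 ± 0.28 (SE, adjusted p = 0.123), and in 5/6 Nx-LPi-Lp against Sham it was -0.79 ± 0.30 (adjusted p = 0.0702), which was called, at adjusted p = 0.0252, once Sham replicate 3 was left out, and under total-count scaling (-1.02, adjusted p = 0.0274). The difference of 5/6 Nx-HPi-Lp from 5/6 Nx-HPi-Hp was -0.52, and 0.0075 without 5/6 Nx-HPi-Hp replicate 4.

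Fbn1 encodes fibrillin-1, the main fibrillin of adult microfibrils (mm10 chr2:125300594-125507993, minus strand). It was at 17.7, 19.1, 11.95 and 14.8 FPKM in Sham, and at 11.4, 40.0, 16.7 and 22.3 FPKM in 5/6 Nx-HPi-Lp. It was at 8.96, 7.09, 4.12 and 17.3 FPKM in 5/6 Nx-HPi-Hp, and at 5.06, 6.75, 8.20 and 10.9 FPKM in 5/6 Nx-LPi-Lp. All 4 of the 5/6 Nx-LPi-Lp libraries lay below every Sham and every 5/6 Nx-HPi-Lp library, while Sham and 5/6 Nx-HPi-Lp overlapped. Against Sham, Fbn1 was called lower in 5/6 Nx-LPi-Lp (log2 fold change -1.02 ± 0.24, adjusted p = 0.011), close to the fold threshold, and the call was lost when any one of 4 libraries was left out (Sham replicates 1 and 2, 5/6 Nx-LPi-Lp replicates 1 and 2; values of -0.97, -0.92, -0.86 and -0.97). It was also lost with all libraries by limma on log2(FPKM + 1) (-0.98, adjusted p = 0.0118) and in an edgeR fit of all 16 libraries (-1.04, adjusted p = 0.0858). Its difference from Sham in 5/6 Nx-HPi-Lp was 0.48 ± 0.33 (adjusted p = 0.273). Between the operated groups it was called higher in 5/6 Nx-HPi-Lp than in 5/6 Nx-LPi-Lp (1.55 ± 0.39, adjusted p = 0.0227). This call was lost without 5/6 Nx-HPi-Lp replicate 4 or without 5/6 Nx-LPi-Lp replicate 1, 2 or 3, at adjusted p of 0.0533 to 0.0576. Against 5/6 Nx-HPi-Hp its log2 fold change was 1.26 (adjusted p = 0.105), and 1.75 (adjusted p = 0.0312) without 5/6 Nx-HPi-Hp replicate 4. With every library kept it was called by DESeq2 (1.25, adjusted p = 0.026) and in the fit of all 16 libraries (1.31, adjusted p = 0.0272).

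Fbn2 encodes fibrillin-2, a fibrillin best known from developing microfibrils. In the same libraries it was read at 1, 0, 0 and 5 counts in Sham and at 13, 477, 78 and 79 counts in 5/6 Nx-HPi-Lp. The 5/6 Nx-HPi-Hp libraries held 2, 0, 2 and 0 counts, and the 5/6 Nx-LPi-Lp libraries 3, 0, 4 and 7 counts. Every 5/6 Nx-HPi-Lp library was above every other library, although even there the level per length was low, at 0.0802, 0.815, 0.165 and 0.488 FPKM. The fitted log2 fold changes of 5.98 against Sham, 5.86 against 5/6 Nx-HPi-Hp and 4.32 against 5/6 Nx-LPi-Lp are descriptions, since with so few counts in the other groups counting error is large and the fitted size depends on the fit's prior count.

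Fbln5 encodes fibulin-5, which binds tropoelastin and helps to place it on microfibrils (mm10 chr12:101746565-101819055, minus strand). Its Sham values were 64.1, 72.1, 77.6 and 58.0 FPKM, and its 5/6 Nx-HPi-Lp values were 15.4, 20.5, 23.9 and 18.3 FPKM. The 5/6 Nx-HPi-Hp libraries held 33.3, 28.4, 16.8 and 61.3 FPKM, and the 5/6 Nx-LPi-Lp libraries 23.9, 26.5, 33.3 and 41.3 FPKM. Sham lay above every library of 5/6 Nx-HPi-Lp and of 5/6 Nx-LPi-Lp, and among the operated libraries only 5/6 Nx-HPi-Hp replicate 4 reached the Sham range. Fbln5 fell in 5/6 Nx-HPi-Lp against Sham by 1.83 on the log2 scale (SE 0.16, adjusted p = 3.9e-05), and by 1.10 in 5/6 Nx-LPi-Lp (SE 0.19, adjusted p = 0.00374). The first value ranged from -1.93 to -1.71 when each library was left out in turn. The second fell just short of the fold threshold, at -0.99, without 5/6 Nx-LPi-Lp replicate 1. For 5/6 Nx-HPi-Hp against Sham it was -0.96 (adjusted p = 0.0508), and -1.39 (adjusted p = 0.00148) without replicate 4. With every library kept, it was called lower there under total-count scaling (-1.13, adjusted p = 0.0441). The same held for edgeR with no count filter (-1.01, adjusted p = 0.0199) and limma on log2(FPKM + 1) (-1.07, adjusted p = 0.0397). Between 5/6 Nx-HPi-Lp and 5/6 Nx-LPi-Lp the difference was -0.68 ± 0.21 (adjusted p = 0.0486), past the p threshold alone.

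Efemp2 encodes fibulin-4, which is needed for elastin assembly and for the action of lysyl oxidase (mm10 chr19:5473973-5481853, plus strand). It ranged from 57.5 to 63.2 FPKM in Sham, the narrowest spread of the 10 genes there relative to the mean (SD 2.40, mean 60.7). It ranged from 30.1 to 62.6 FPKM in 5/6 Nx-HPi-Lp, from 34.1 to 60.0 in 5/6 Nx-HPi-Hp and from 34.5 to 52.1 in 5/6 Nx-LPi-Lp. The only group that did not overlap Sham was 5/6 Nx-LPi-Lp, where the log2 fold change was -0.56 ± 0.14 (adjusted p = 0.0149), under the fold threshold. For 5/6 Nx-HPi-Lp it was -0.51 ± 0.21 (adjusted p = 0.0773). For 5/6 Nx-HPi-Hp, which overlapped Sham only through replicate 4 (60.0 FPKM), it was -0.44 ± 0.17 (adjusted p = 0.0753). Without that library it was -0.61 (adjusted p = 0.00436), also under the fold threshold. Between the operated groups its log2 differences lay between -0.056 and 0.13.

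Lox encodes lysyl oxidase, which oxidises lysines of tropoelastin and collagen to start their cross-links. It was at 32.9, 41.0, 19.0 and 25.6 FPKM in Sham and at 24.2, 104, 66.7 and 44.9 FPKM in 5/6 Nx-HPi-Lp. In 5/6 Nx-HPi-Hp it was at 7.92, 7.62, 4.86 and 28.5 FPKM, and in 5/6 Nx-LPi-Lp at 7.33, 6.72, 14.7 and 10.8 FPKM. The highest library of 5/6 Nx-LPi-Lp lay below the lowest Sham library and the lowest 5/6 Nx-HPi-Lp library, as did 3 of the 4 libraries of 5/6 Nx-HPi-Hp. Lox was called higher in 5/6 Nx-HPi-Lp than in 5/6 Nx-LPi-Lp (log2 fold change 2.60 ± 0.44, adjusted p = 0.00545). It was also called higher than in 5/6 Nx-HPi-Hp (2.27 ± 0.60, adjusted p = 0.0369). That second call was lost without any one of 5/6 Nx-HPi-Lp replicates 2, 3 and 4 or 5/6 Nx-HPi-Hp replicates 1, 2 and 3 (adjusted p of 0.0742 to 0.111), and without 5/6 Nx-HPi-Hp replicate 4 the difference was 3.14 (adjusted p = 0.00945). Against Sham, Lox was called lower in 5/6 Nx-LPi-Lp (-1.57 ± 0.29, adjusted p = 0.00491). It was 0.98 ± 0.39 in 5/6 Nx-HPi-Lp (adjusted p = 0.0695), and 1.26 with adjusted p = 0.00915 without 5/6 Nx-HPi-Lp replicate 1. It was -1.27 in 5/6 Nx-HPi-Hp (adjusted p = 0.0751), and -2.13 with adjusted p = 0.000493 without replicate 4. With every library kept, it was called lower there by edgeR with no count filter (-1.32, adjusted p = 0.0226). The same held for limma on log2(FPKM + 1) (-1.46, adjusted p = 0.0451) and edgeR with a replicate block (-1.61, adjusted p = 0.0341).

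Loxl1 encodes lysyl oxidase-like 1, a cross-linking enzyme that acts on elastin (mm10 chr9:58287738-58313186, minus strand). It was at 118, 124, 103 and 117 FPKM in Sham and at 55.9, 102, 72.1 and 69.4 FPKM in 5/6 Nx-HPi-Lp. The highest 5/6 Nx-HPi-Lp library lay just below the lowest Sham library. The log2 fold change was -0.66 ± 0.17 (adjusted p = 0.0112), past the p threshold but not the fold threshold, and in 5/6 Nx-LPi-Lp against Sham it was -0.59 ± 0.19 (adjusted p = 0.0391). In 5/6 Nx-HPi-Hp against Sham it was -0.32 (adjusted p = 0.421), and -0.69 (adjusted p = 0.024) without replicate 4. Between 5/6 Nx-HPi-Lp and 5/6 Nx-LPi-Lp, where Lox differed by 2.60, Loxl1 differed by -0.020 ± 0.25 (adjusted p = 0.965), a value whose sign turned with the scaling (0.024 by total counts).

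Mfap4 encodes a glycoprotein that binds elastin and microfibrils (mm10 chr11:61485431-61488900, plus strand). It was the second most abundant member per length by group mean in every group. It was at 282, 329, 304 and 269 FPKM in Sham and at 81.2, 158, 122 and 88.9 FPKM in 5/6 Nx-HPi-Lp. It was at 199, 282, 145 and 462 FPKM in 5/6 Nx-HPi-Hp and at 122, 186, 186 and 221 FPKM in 5/6 Nx-LPi-Lp. Every 5/6 Nx-HPi-Lp and every 5/6 Nx-LPi-Lp library lay below every Sham library. Against Sham, Mfap4 fell in 5/6 Nx-HPi-Lp by 1.43 on the log2 scale (SE 0.20, adjusted p = 0.000426), and this ranged from -1.62 to -1.28 with each library left out in turn. In 5/6 Nx-LPi-Lp it was -0.71 ± 0.18 (adjusted p = 0.0174), under the fold threshold. In 5/6 Nx-HPi-Hp it was -0.13 (adjusted p = 0.771), and -0.51 (adjusted p = 0.0766) without replicate 4. The call against 5/6 Nx-HPi-Hp (-1.28 ± 0.37, adjusted p = 0.0463) was lost in 7 of 8 fits that left out 1 library, all but that without 5/6 Nx-HPi-Hp replicate 3. Its value was -0.89 (adjusted p = 0.0684) without replicate 4. With every library kept, the call was also lost under total-count scaling (-1.26, adjusted p = 0.0631). The same held for limma on log2(FPKM + 1) (-1.18, adjusted p = 0.0672) and edgeR with a replicate block (-1.18, adjusted p = 0.124). The 3′ end of Mfap4 overlaps that of Mapk7 on the other strand by 89 bases, and without a stated strand setting reads there cannot be assigned. Over all 16 libraries Mapk7 had 15024 counts and Mfap4 147127.

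Emilin1 encodes an elastin interface protein (mm10 chr5:30913402-30921277, plus strand). It ranged from 47.6 to 60.8 FPKM in Sham and from 22.6 to 40.2 FPKM in 5/6 Nx-HPi-Lp, with no overlap. The log2 fold change was -0.79 ± 0.19 (adjusted p = 0.00901), and in 5/6 Nx-LPi-Lp against Sham, where the groups overlapped, -0.58 ± 0.19 (adjusted p = 0.0389). Both were past the p threshold and under the fold threshold. In 5/6 Nx-HPi-Hp against Sham the log2 fold change was -0.29 (adjusted p = 0.349), and -0.52 (adjusted p = 0.0349) without 5/6 Nx-HPi-Hp replicate 4.

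Mfap5 encodes a microfibril-associated glycoprotein that binds fibrillin (mm10 chr6:122505845-122529290, plus strand). It was at 46.5, 53.4, 50.6 and 44.9 FPKM in Sham, and at 52.1, 93.7, 53.3 and 80.0 FPKM in 5/6 Nx-HPi-Lp. It ranged from 38.0 to 64.1 FPKM in 5/6 Nx-HPi-Hp and from 29.2 to 45.9 FPKM in 5/6 Nx-LPi-Lp. All 4 of the 5/6 Nx-HPi-Lp libraries lay above all 4 of the 5/6 Nx-LPi-Lp libraries. That difference was 0.86 ± 0.23 on the log2 scale (adjusted p = 0.0292), past the p threshold and under the fold threshold. Against Sham it was 0.48 ± 0.19 (adjusted p = 0.0613).

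**Figure D2:**
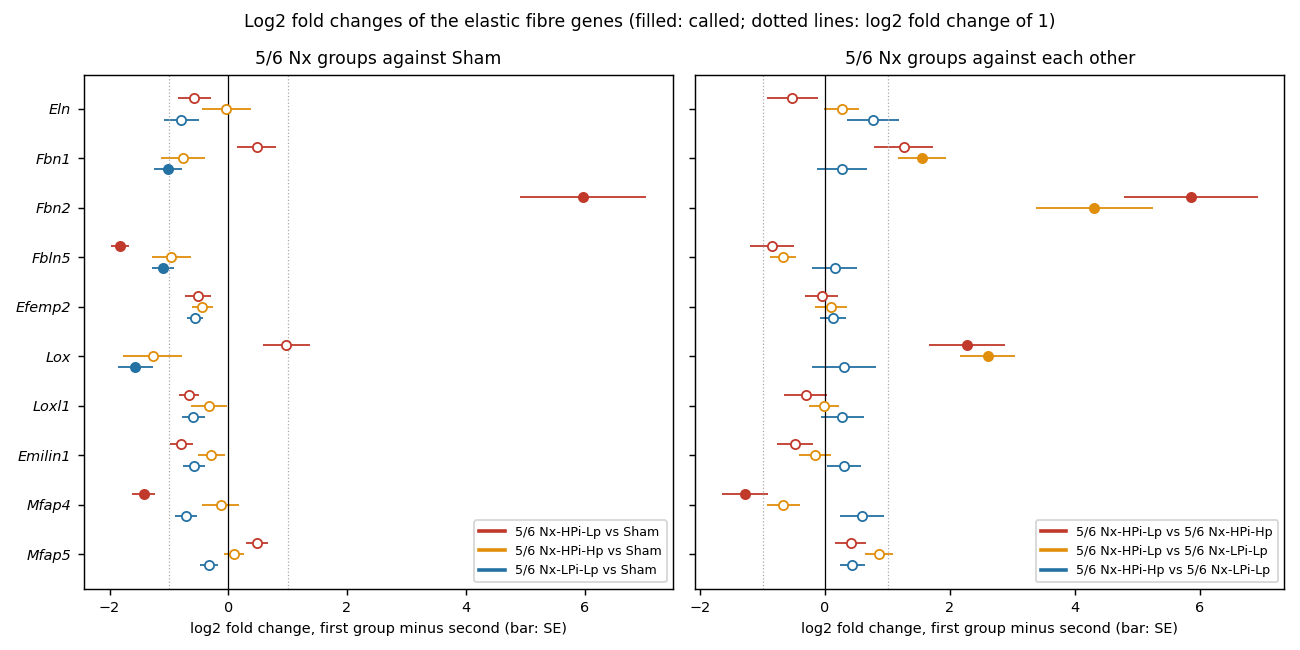
Log2 fold change of each elastic fibre gene, with its SE as a bar, in the 3 comparisons with Sham (left) and the 3 among operated groups (right). Filled points were called and open points were not, and the filled points of Fbn2 rest on a filter passed only through 5/6 Nx-HPi-Lp. Fbn2 has no value in the 3 comparisons without 5/6 Nx-HPi-Lp, and the blue points of the right panel, 5/6 Nx-HPi-Hp against 5/6 Nx-LPi-Lp, are all open.

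By order of the group means, the 10 genes fell into 2 patterns. Fbn1, Fbn2, Lox and Mfap5 had their highest mean in 5/6 Nx-HPi-Lp. Eln, Fbln5, Efemp2, Loxl1, Emilin1 and Mfap4 had their highest mean in Sham, and for Fbln5, Loxl1, Emilin1 and Mfap4 the lowest mean was in 5/6 Nx-HPi-Lp. For Loxl1 that lowest place was slight, at a log2 difference of -0.020 from 5/6 Nx-LPi-Lp. Without 5/6 Nx-HPi-Hp replicate 4, its difference from 5/6 Nx-HPi-Hp turned to 0.055. In that fit Fbln5, Emilin1 and Mfap4 stayed lower in 5/6 Nx-HPi-Lp, by values of -0.42, -0.25 and -0.89. The highest place of Eln in Sham was slight too, at -0.031 in 5/6 Nx-HPi-Hp against Sham (edgeR adjusted p = 0.958). Its sign turned in 5 of 8 fits that left out 1 library. Among the 9 members other than Fbn2, no neighbours in these orders differed past both thresholds, which does not show that they were equal. For Fbn2 the order outside 5/6 Nx-HPi-Lp rests on at most 7 counts per library.

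Ratios of members within a library do not depend on how libraries are scaled, and 3 were tested. Each test was a two-sided exact permutation test of 4 against 4 libraries. The smallest p it can give is 0.0286, which after adjustment over the 18 tests came to 0.0514 in this family. No ratio was therefore called at 0.05, and the values are given for their size. The ratio of Loxl1 to Lox was 2.02 ± 0.37 on the log2 scale in Sham (SD, n = 4), 0.48 ± 0.56 in 5/6 Nx-HPi-Lp, 3.15 ± 0.49 in 5/6 Nx-HPi-Hp and 2.97 ± 0.32 in 5/6 Nx-LPi-Lp. The 4 libraries of 5/6 Nx-HPi-Lp all lay below the 12 others (exact permutation p = 0.0286, adjusted p = 0.0514 in each of the 3 comparisons). The difference was -1.53 against Sham, -2.67 against 5/6 Nx-HPi-Hp and -2.49 against 5/6 Nx-LPi-Lp. In 5/6 Nx-LPi-Lp the ratio was 0.96 above Sham, again with no overlap (exact permutation p = 0.0286, adjusted p = 0.0514).

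The ratio of Eln to Fbn1 was 4.40 ± 0.37 on the log2 scale in Sham, 3.51 ± 0.85 in 5/6 Nx-HPi-Lp, 5.21 ± 0.36 in 5/6 Nx-HPi-Hp and 4.68 ± 0.22 in 5/6 Nx-LPi-Lp. Against Sham it was 0.80 higher in 5/6 Nx-HPi-Hp (exact permutation p = 0.0286, adjusted p = 0.0514), and 5/6 Nx-HPi-Hp replicate 4, at 5.23, lay within its own group here. In 5/6 Nx-HPi-Lp the ratio was -0.89 against Sham with overlap (exact permutation p = 0.143, adjusted p = 0.184). It was -1.69 against 5/6 Nx-HPi-Hp and -1.17 against 5/6 Nx-LPi-Lp, without overlap (exact permutation p = 0.0286, adjusted p = 0.0514 for each). Fbn2 was 1.48 ± 0.74 percent of Fbn1 in 5/6 Nx-HPi-Lp, against 0.036 ± 0.059 percent in Sham, 0.12 ± 0.17 in 5/6 Nx-HPi-Hp and 0.24 ± 0.16 in 5/6 Nx-LPi-Lp. It thus remained a small fraction of fibrillin message in every library, at most 2.18 percent of the Fbn1 level per length.

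**Figure D3:**
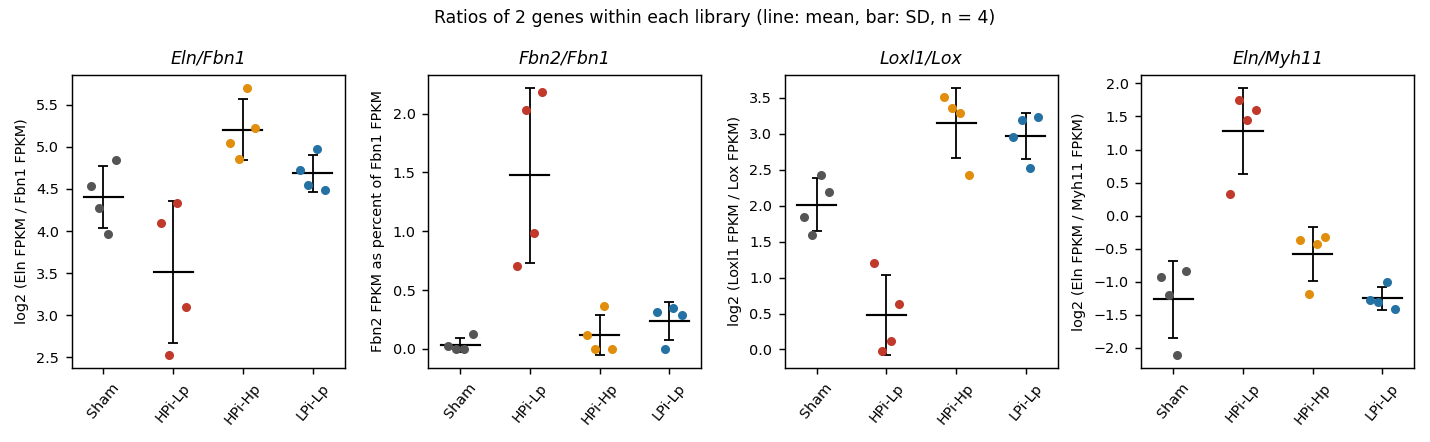
Ratios of 2 genes within each library, on a log2 scale except for Fbn2, which is drawn as a percent of Fbn1, with 4 points per group, the mean as a line and the SD as a bar. The 4 5/6 Nx-HPi-Lp libraries have the lowest Loxl1 to Lox ratios (-0.018 to 1.21) and the highest Eln to Myh11 ratios (0.33 to 1.76).

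Calls of cell type markers are given for 5/6 Nx-HPi-Lp against Sham, where 15.0% of all tested genes were called higher and 7.18% lower. In 5/6 Nx-HPi-Lp against Sham, 7 of 7 smooth muscle markers were called lower (median log2 fold change -2.80), and their summed level was 759 to 1766 FPKM against 7619 to 9680 in Sham, 1886 to 8383 in 5/6 Nx-HPi-Hp and 2539 to 6190 in 5/6 Nx-LPi-Lp. Acta2, the smooth muscle actin, averaged 6710 FPKM in Sham and 979 in 5/6 Nx-HPi-Lp. The log2 fold change of Eln, -0.57, was smaller than that median. The log2 ratio of Eln to Myh11 was -1.26 ± 0.58 in Sham, 1.28 ± 0.65 in 5/6 Nx-HPi-Lp, -0.58 ± 0.41 in 5/6 Nx-HPi-Hp and -1.25 ± 0.17 in 5/6 Nx-LPi-Lp, given as a description with no test. In whole aorta, fewer cells of a type and less RNA per cell cannot be told apart. The part of this in the changes of the elastic fibre genes was not tested.

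Fibroblast markers were called higher in 4 of 7 (median 1.14), with a summed level of 792 to 3524 FPKM in 5/6 Nx-HPi-Lp, 456 to 682 in Sham, 307 to 678 in 5/6 Nx-HPi-Hp and 297 to 402 in 5/6 Nx-LPi-Lp. Of the defining pair, Pdgfra averaged 9.31 FPKM in 5/6 Nx-HPi-Lp and 6.65 in Sham, and Dcn 161 and 123. Pi16 averaged 76.0 and 71.7. The larger differences lay in Col1a1 (660 and 124), Col3a1 (568 and 118), Lum (187 and 34.7) and Dpt (169 and 74.9). Macrophage markers were called higher in 5 of 5 (summed level 309 to 1179 FPKM in 5/6 Nx-HPi-Lp, 77.9 to 134 in Sham, 127 to 225 in 5/6 Nx-HPi-Hp and 74.7 to 156 in 5/6 Nx-LPi-Lp). Of these, Adgre1 averaged 8.37 against 1.49 FPKM and Cd68 27.4 against 4.70. Adipocyte markers were called higher in 4 of 5 (939 to 1601 FPKM against 122 to 338 in Sham, 288 to 2018 in 5/6 Nx-HPi-Hp and 698 to 2019 in 5/6 Nx-LPi-Lp), with Adipoq at 262 against 30.4 FPKM. Markers of sympathetic neurons, which a dissected aorta should hardly hold, summed to 0.386 to 1.56 FPKM in Sham, 11.6 to 558 in 5/6 Nx-HPi-Lp, 1.76 to 92.1 in 5/6 Nx-HPi-Hp and 0.906 to 49.6 in 5/6 Nx-LPi-Lp. Th and Dbh, the enzymes of noradrenaline synthesis, were listed at 0 in at least 1 library of Sham, 5/6 Nx-HPi-Lp and 5/6 Nx-LPi-Lp. The library with the highest Fbn2, Lox and Fbn1, 5/6 Nx-HPi-Lp replicate 2, had the lowest neuron sum of its group, at 11.6 FPKM, and the highest fibroblast and macrophage sums of all 16 libraries, at 3524 and 1179 FPKM. The 2 heart muscle markers Myh6 and Nppa averaged 1.18 and 0.044 FPKM in Sham, and 1.81 and 0.083 in 5/6 Nx-HPi-Lp. Of the tested markers in the remaining lists, those called higher and lower were 2 and 0 of 5 for endothelium, 1 and 0 of 4 for brown adipocytes, 4 and 0 of 4 for Schwann cells, 1 and 2 of 5 for lymphoid cells, 0 and 3 of 4 for skeletal muscle, 0 and 0 of 3 for heart muscle, 2 and 0 of 5 for chondrocytes and osteoblasts, and 2 and 0 of 2 for pancreatic acinar cells (4 listed), where a marker can pass the count filter only through the group in which it is high. The part of these cells in the levels above was not tested.

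Other genes of the elastic fibre pathway were read from 4 lists. In 5/6 Nx-HPi-Lp against Sham their counts stand beside 15.0% of all tested genes called higher and 7.18% lower. Of 13 tested genes for microfibril and fibre-associated proteins (14 listed), 4 were called higher and 2 lower in 5/6 Nx-HPi-Lp against Sham, with a median log2 fold change of 0.070. The 2 that fell were latent TGF-β binding proteins, Ltbp4 (-1.88 ± 0.18, adjusted p = 5.7e-05, 76.0 against 275 FPKM) and Ltbp1 (-1.72 ± 0.18, adjusted p = 8.7e-05, 19.0 against 61.3 FPKM). Ltbp4 is known to work with fibulin-5 in elastin assembly. Emilin2, a relative of Emilin1, rose by 1.95 ± 0.30 (adjusted p = 0.000693, 8.33 against 2.11 FPKM), whereas Emilin1 had the value of -0.79 given above. In the 2 comparisons with the other operated groups, 4 of 13 were called higher and 1 lower in each. The shares of all genes there were 5.01% and 3.11% against 5/6 Nx-HPi-Hp, and 7.90% and 3.98% against 5/6 Nx-LPi-Lp.

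Of 14 cross-linking and assembly accessories, 3 were called higher and 2 lower in 5/6 Nx-HPi-Lp against Sham (median 0.23), beside 15.0% and 7.18% of all genes. Loxl2, a lysyl oxidase-like enzyme best known for acting on collagen IV, rose by 2.24 ± 0.38 (adjusted p = 0.00123, 15.7 against 3.25 FPKM). Thsd4, whose product ADAMTSL6 promotes fibrillin-1 assembly, was lower by a log2 fold change of -2.45 ± 0.34 (adjusted p = 0.000405, 4.09 against 21.9 FPKM), and Adamtsl3, of the same family, had -1.62 ± 0.11 (adjusted p = 1.5e-05). In 5/6 Nx-LPi-Lp against Sham 0 of 14 were called higher and 1 lower, beside 8.79% and 2.08% of all genes.

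Of 10 listed elastin-degrading proteases 7 were tested. Prtn3, a serine protease of neutrophil granules, entered the test against Sham only through 5/6 Nx-HPi-Lp, with 0 to 5 counts in Sham and 54 to 260 in 5/6 Nx-HPi-Lp (0.064 and 2.77 FPKM on average), and so its difference is a description. Of the other 6, 5 were called higher in 5/6 Nx-HPi-Lp against Sham and 0 lower (median 2.65), beside 15.0% and 7.18% of all genes. The summed level of the list was 191 to 668 FPKM in 5/6 Nx-HPi-Lp, above the 59.2 to 82.4 of Sham, the 50.1 to 81.9 of 5/6 Nx-HPi-Hp and the 47.2 to 60.8 of 5/6 Nx-LPi-Lp. Mmp12, the macrophage elastase, rose by 4.03 ± 0.59 (adjusted p = 0.000537) from 0.219 to 3.67 FPKM. Ctss, the cysteine protease cathepsin S, rose by 3.92 ± 0.42 (adjusted p = 0.000111) from 6.18 to 95.5 FPKM. Of the 6 proteases tested in the other operated groups against Sham, 1 was called higher in 5/6 Nx-HPi-Hp, 0 were in 5/6 Nx-LPi-Lp, and 0 were called lower in either. Of all genes, 9.41% were called higher and 2.75% lower in 5/6 Nx-HPi-Hp, and 8.79% and 2.08% in 5/6 Nx-LPi-Lp.

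Of 5 inhibitors of those proteases, 2 were called higher and 2 lower in 5/6 Nx-HPi-Lp against Sham (median -0.40), beside 15.0% and 7.18% of all genes. Timp1, an inhibitor of matrix metalloproteinases, rose by 4.77 ± 0.51 (adjusted p = 0.00011) to 453 FPKM from 16.2. Cst3, the cathepsin inhibitor cystatin C, had -1.10 ± 0.14 (adjusted p = 0.000223). Timp3, a matrix-bound inhibitor, had -1.06 ± 0.14 (adjusted p = 0.000301), and its call was lost without 5/6 Nx-HPi-Lp replicate 2 or 4 (-0.98 and -0.997).

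**Figure D4:**
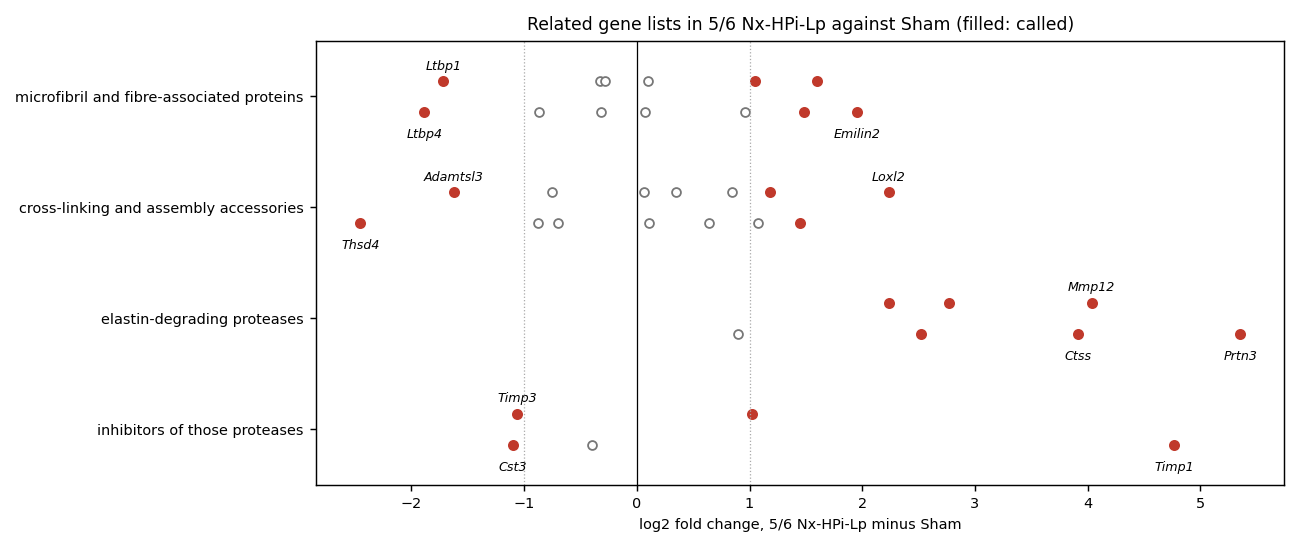
Log2 fold change in 5/6 Nx-HPi-Lp against Sham of each tested gene of the 4 related lists, filled where called and open where not. All 7 tested proteases lie to the right of 0 and 6 of them are filled (Prtn3 among them, tested only through 5/6 Nx-HPi-Lp), while the other 3 lists hold filled points on both sides.

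Over the 16 libraries, the genes whose log2(FPKM + 1) was most like that of Eln, among 7227 other genes with a mean of at least 5 FPKM, were Scx (Pearson r = 0.89, Spearman rho = 0.84), Tnfrsf12a (0.88 and 0.84), Foxs1 (0.86 and 0.86), Tagln2 (0.85 and 0.81) and Tspan9 (0.84 and 0.79). None of the other 9 members was among these 5. The 16 points share groups and library depth, so these values are a description.

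The 3′ untranslated regions of the members were searched for the seed match of miR-29, a microRNA family known to target elastin and collagen messages. The search was made after the levels were known and is a description. The mature RefSeq sequences (GRCm38.p6) are printed with the seed, bases 2 to 8, in capitals, since the 3 family members share it.
mmu-miR-29a-3p: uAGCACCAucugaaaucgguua
mmu-miR-29b-3p: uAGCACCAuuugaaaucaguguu
mmu-miR-29c-3p: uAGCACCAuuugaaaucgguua

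The match TGGTGCT occurred 3 times in Eln, 2 times in Fbn1, 1 time in Fbn2, 3 times in Lox and 2 times in Mfap5, and 0 times in Fbln5, Efemp2, Loxl1, Emilin1 and Mfap4. Thus 5 of 10 members held it, beside 13.0% of 20998 genes, taking the longest 3′ untranslated region of each in GENCODE vM21. Since the family was chosen for its known targets, the 2 shares are a description and not a test of enrichment. They also take no account of the length of these regions, which ran from 325 to 4177 bases in the members. The 5 members with a match included the 4 whose mean was highest in 5/6 Nx-HPi-Lp, and the fifth was Eln. The 5 members without a match all had their highest mean in Sham. Of those 4, Fbn2 entered the test only through 5/6 Nx-HPi-Lp and so had to be high there. Fbn1, Lox and Mfap5 were not called in 5/6 Nx-HPi-Lp against Sham. The split thus rests on the order of means, and a link between matches and levels was not tested. MicroRNAs were not measured in these libraries, and a match does not show that a site is used. The sites of Eln and Fbn1 are shown with the match in capitals, in transcript direction, on GRCm38.
Eln site 1, chr5:134703736-134703757, minus strand: gacctcatcaacgtTGGTGCTa
Eln site 2, chr5:134703489-134703510, minus strand: tctccaagggaaatTGGTGCTa
Eln site 3, chr5:134703476-134703497, minus strand: ttggtgctacatgtTGGTGCTt
Fbn1 site 1, chr2:125301173-125301194, minus strand: ttctgttgtctgttTGGTGCTa
Fbn1 site 2, chr2:125300923-125300944, minus strand: gtgagggtttgtaaTGGTGCTt

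Promoter sequences from RefSeq (250 bases before to 50 after a start listed there) were matched for 4 of the 10 members, Fbn1, Fbln5, Efemp2 and Emilin1. Those of Fbn1 and Fbln5 are shown because both genes were called lower in 5/6 Nx-LPi-Lp against Sham while in 5/6 Nx-HPi-Lp only Fbln5 was. Capitals mark the motifs searched on both strands, which were the GC box GGGCGG, the CCAAT box CCAAT, the TATA box TATAAA and the SMAD box CAGAC. The window of Fbn1 held 1 GC box and 0 of the other 3 motifs, and the Fbln5 window shown held 2 GC boxes, 1 CCAAT box, 1 SMAD box and 0 TATA boxes. It is 1 of 2 windows listed for Fbln5, and the other (chr12:101818435-101818734) held 2 SMAD boxes and 0 of the other 3 motifs. Of all 32851 windows in the table, 35.7% held the GC box, 37.4% the CCAAT box, 13.6% the TATA box and 49.6% the SMAD box. The windows do not sit at the starts of the gene coordinates given above. The Fbn1 window lies wholly inside that gene, whose start there is 125507993. The Fbln5 window shown lies wholly before that gene's start at 101819055.
Fbn1, GRCm38.p6 chr2:125506389-125506688, minus strand: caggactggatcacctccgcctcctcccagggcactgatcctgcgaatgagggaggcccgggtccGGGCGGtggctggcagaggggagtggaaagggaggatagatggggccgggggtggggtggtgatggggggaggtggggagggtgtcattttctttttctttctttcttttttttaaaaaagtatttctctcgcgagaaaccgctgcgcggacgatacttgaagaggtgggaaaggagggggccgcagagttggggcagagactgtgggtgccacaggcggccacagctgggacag
Fbln5, GRCm38.p6 chr12:101819070-101819369, minus strand: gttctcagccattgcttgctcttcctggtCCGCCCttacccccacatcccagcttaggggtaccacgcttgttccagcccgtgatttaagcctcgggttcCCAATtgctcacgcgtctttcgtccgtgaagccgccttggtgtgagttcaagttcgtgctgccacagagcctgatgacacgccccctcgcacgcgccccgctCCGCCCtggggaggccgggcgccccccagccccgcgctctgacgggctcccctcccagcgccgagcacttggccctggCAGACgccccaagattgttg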

How the data were processed

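Cleaned reads had been mapped by the authors to mm10 (HISAT2) and assigned to genes by featureCounts, version 1.5.0-p3 per the submitters' processing notes. The deposited values are raw whole-number counts and FPKM, the latter already scaled between libraries. Strand and multi-mapping settings are not given in the sources used here. The members and the related gene lists were chosen with earlier results of these data known.

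The counts of all genes entered edgeR 4.0.16 in R 4.3.3 (filterByExpr, TMM scaling, quasi-likelihood test, Benjamini-Hochberg adjustment over all genes tested) fitted to the 8 libraries of each of 6 comparisons. DESeq2 1.42.0, limma 3.58.1, other scalings, no count filter, one fit of 16 libraries, a replicate block and leaving out mitochondrial genes or each library were alternatives. The scripts were tested on simulated data. Ratios used FPKM with no pseudocount and two-sided exact permutation tests over 70 splits. Since Fbn2 is listed at 0 in several libraries, its ratio was taken as a percent in place of the planned log2 value. All 10 members were named, and from each related list the 3 called genes with the largest change in 5/6 Nx-HPi-Lp against Sham and any called against the direction of most. 3′ untranslated regions came from GENCODE vM21 (GRCm38).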

Additional observations from a re-analysis of the deposited data

Results flagged for a closer look

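Each member was examined for a library far from the other 3 of its group, 40 groups of 4 in all, by Dixon's gap over range with a critical value of 0.829. One was found. Lox in 5/6 Nx-HPi-Hp replicate 4 stood at 28.5 FPKM, against 4.86 to 7.92 in the other 3 libraries, a gap of 0.871 of the range. Chance alone gives such a gap in about 1 of 20 groups.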

How the results depend on the processing

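Of the results other than counts over all genes, 656 values under alternatives that kept every library stayed on the same side of the thresholds or near the reported value, 17 passed a threshold only under the alternative, 9 no longer passed, 9 counts moved and 5 values changed sign. Member counts here include Fbn2. Without the fold threshold 5 members passed in 5/6 Nx-HPi-Lp against Sham (42.9% of all genes), 5 against 5/6 Nx-LPi-Lp (20.1%), and 7 in 5/6 Nx-LPi-Lp against Sham (31.8%). In 5/6 Nx-HPi-Lp against 5/6 Nx-HPi-Hp limma on log2(FPKM + 1) called 1, while genes called over the whole table fell from 1315 to 783. In 5/6 Nx-HPi-Hp against Sham, total-count scaling called 1 (Fbln5), and no count filter and limma called 2 each (Fbln5 and Lox), all lower. With limma, genes called there over the whole table fell from 1932 to 878. That number moved less with total counts, no count filter or a block on the replicate number. The replicate numbers did not pair the animals (24 same-numbered pairs, correlations of -0.26 to 0.48, 5 of them over 0.1, 3 of 16 libraries matching their own number best). A block on the replicate number called 0 members against 5/6 Nx-HPi-Hp (Fbn2 at adjusted p = 0.0727, and 0.0566 against 5/6 Nx-LPi-Lp) and 1 in 5/6 Nx-HPi-Hp against Sham (Lox, lower). With that block, genes called over the whole table in 5/6 Nx-HPi-Lp against 5/6 Nx-HPi-Hp fell from 1315 to 371. Near 0, Loxl1 in 5/6 Nx-HPi-Lp against 5/6 Nx-LPi-Lp turned to 0.024 with total counts and 0.027 without mitochondrial genes, and Mfap5 in 5/6 Nx-HPi-Hp against Sham to -0.11 with total counts. With 1 FPKM added, Fbn2 as a percent of Fbn1 became -5.44 percentage points against 5/6 Nx-HPi-Hp and -5.87 against 5/6 Nx-LPi-Lp, since the added value exceeds every Fbn2 level. The causes of the other changes were not tested.

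With each library left out in turn, members called ranged from 1 to 3 against 5/6 Nx-HPi-Hp (638 to 1558 over all genes), 0 to 3 in 5/6 Nx-HPi-Hp against Sham (1091 to 3161) and 1 to 4 in 5/6 Nx-LPi-Lp against Sham (1333 to 2233; 1 member without 5/6 Nx-LPi-Lp replicate 1). Log2 fold changes that crossed 0 ranged, in 5/6 Nx-HPi-Lp against 5/6 Nx-HPi-Hp, from -0.76 to 0.0075 (Eln), -0.28 to 0.13 (Efemp2) and -0.55 to 0.055 (Loxl1). Against 5/6 Nx-LPi-Lp they ranged from -0.14 to 0.26 (Efemp2), -0.22 to 0.17 (Loxl1) and -0.30 to 0.068 (Emilin1). In 5/6 Nx-HPi-Hp against Sham they ranged from -0.55 to 0.15 (Eln), -0.51 to 0.076 (Mfap4) and -0.0054 to 0.22 (Mfap5). In 5/6 Nx-HPi-Hp against 5/6 Nx-LPi-Lp they ranged from -0.22 to 0.52 (Fbn1), -0.27 to 0.39 (Fbln5), -0.046 to 0.28 (Efemp2), -0.55 to 0.57 (Lox) and -0.090 to 0.50 (Loxl1). Counting error limits Fbn2, with at most 7 counts per library outside 5/6 Nx-HPi-Lp.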
